A study of Mus musculus with 8 samples.

Results

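Nascent transcription was compared between a liver library that lacks the bile acid receptor FXR in hepatocytes and a control library, both from mice given the FXR agonist GW4064. The comparison was the ratio of Fxr-LKO to Fxr-Flox in the GW4064 pair of global run-on sequencing (GRO-seq) libraries, with 1 library for each genotype. Rows of the expression table were kept when they spanned at least 300 bases and averaged at least 0.5 RPKM (reads scaled to the length of the row and to the library total) over the 4 GRO-seq libraries, which left 9683 of 25124 rows, each a gene. Mmab was the last gene inside the level limit at a mean of 0.5 RPKM, and Efnb2 was the first outside it at 0.49975 RPKM.

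The series holds 8 mouse liver libraries of the C57BL/6 strain, 4 from RNA-seq of wild-type mice and 4 from GRO-seq. All mice were fasted overnight and received 30 mg/kg GW4064 or vehicle, and livers were taken 1 h later. For GRO-seq, the Fxr-Flox mice carried the floxed Fxr allele and are labelled WT, and the Fxr-LKO mice carried in addition Cre driven by the albumin promoter, which is active in hepatocytes, and are labelled FXR KO. The vehicle is called DMSO in the sample labels, whereas the study's methods describe GW4064 in corn oil, and the labels speak of RNA pooled from 2 mice.

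FXR, encoded by Nr1h4, is a nuclear receptor that bile acids activate and that binds DNA as a heterodimer with RXR, most often at an inverted repeat with 1 base between its arms (IR1). In hepatocytes it induces the bile salt export pump Abcb11 and the repressor SHP (Nr0b2), and bile acid synthesis through Cyp7a1 is held down when the receptor is active. GRO-seq labels RNA that engaged polymerases are making in isolated nuclei, so a value is a level of transcription across the gene, introns included, and not of mature RNA.

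Nr1h4 itself (chr10:89454234-89506658, minus strand, mm10) measured 15.1 RPKM in Fxr-Flox with vehicle, 4.23 in Fxr-Flox with GW4064, 16.7 in Fxr-LKO with vehicle and 20.6 in Fxr-LKO with GW4064. The Fxr-Flox GW4064 library was thus the low one of the 4, and the log2 ratio of Fxr-LKO over Fxr-Flox was 2.26 with GW4064 and 0.15 with vehicle. The row covers the whole gene, so it does not check the removal of a part of it, and the genotype rests on the labels. The 4 libraries held 14173760, 10593320, 5141660 and 5069400 reads in the same order, as rebuilt from the steps between RPKM values, and a kept gene had a median of 310 reads in the Fxr-Flox and 148 reads in the Fxr-LKO library of the GW4064 pair. The precursor ribosomal RNA row Rn45s was at 1408 RPKM in the former and at 2300 RPKM in the latter. With 1 library for each genotype no test between genotypes is possible, so every ratio below is a description of these libraries, and its interval covers counting error only.

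Abcb11 (chr2:69238282-69342616, minus strand) carried the most reads of the genes that were low in Fxr-LKO. It measured 4.61 RPKM in Fxr-Flox with vehicle, 56.0 in Fxr-Flox with GW4064, 1.20 in Fxr-LKO with vehicle and 1.58 in Fxr-LKO with GW4064. Only the Fxr-Flox GW4064 library was high, and in the GW4064 pair it stood 35.5-fold above Fxr-LKO, with 61906 against 835 reads. Ratios are given on the log2 scale after 0.1 RPKM was added to both values. Abcb11 was at -5.06 with GW4064, with a 95% counting interval of -5.25 to -5.05 for the ratio with nothing added. With vehicle it was at -1.85 (counting interval -2.06 to -1.82), so the libraries already differed by genotype without the agonist.

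The 250 bases before the start of Abcb11 hold a match to the IR1 motif (AGGTCA, any base, TGACCT) that differs from it in 1 letter, and those of Steap3, a metalloreductase of the endosome raised by GW4064 in RNA-seq, hold another that also differs in 1 letter. Both are shown because they are the closest matches before the start of any searched gene that GW4064 raised in RNA-seq or that ranked lowest here. Promoters were found by symbol for 99 of the 119 raised genes and 11 of the 15 lowest. The sequences are from RefSeq, build GRCm38.p6, for chr2:69342617-69342866 and chr1:120270271-120270520, both on the minus strand, with the matched letters in capitals.
Abcb11: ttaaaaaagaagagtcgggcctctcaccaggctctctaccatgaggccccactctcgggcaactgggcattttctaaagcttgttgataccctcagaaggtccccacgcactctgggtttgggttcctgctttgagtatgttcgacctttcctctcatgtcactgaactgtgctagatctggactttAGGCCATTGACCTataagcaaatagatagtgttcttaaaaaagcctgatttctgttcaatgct
Steap3: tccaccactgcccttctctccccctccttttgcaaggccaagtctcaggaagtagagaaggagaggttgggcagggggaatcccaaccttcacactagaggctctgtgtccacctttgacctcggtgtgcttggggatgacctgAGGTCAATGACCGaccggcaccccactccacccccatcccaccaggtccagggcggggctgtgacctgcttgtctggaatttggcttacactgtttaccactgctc
The Abcb11 match lies 63 to 51 bases before the start and the Steap3 match 106 to 94 bases before it. Steap3 measured 0.317 RPKM in Fxr-Flox with vehicle, 1.67 in Fxr-Flox with GW4064, 0.170 in Fxr-LKO with vehicle and 0.115 in Fxr-LKO with GW4064. It passed the level limit only through the Fxr-Flox GW4064 library, so being highest there is partly set by the filter and is no parallel to Abcb11.

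The motif was searched in windows of 300 bases, 250 before to 50 after each start, and it reads the same on both strands. A match with at most 2 letters changed was present in 1 of 12 promoters of the 15 lowest genes (11 genes matched by symbol), in 0 of 12 promoters of the 15 highest (9 genes matched), and in 5 of 136 promoters (3.68%) of 99 matched genes that GW4064 raised in RNA-seq, beside 374 of 32851 (1.14%) among all promoters. With 3 letters allowed the shares were 15.4% for the RNA-seq genes and 11.4% for all promoters, with 3 of 12 promoters of the lowest and 4 of 12 of the highest genes. A match is a description of letters in this window and not of binding.

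Across the 9683 genes, the Fxr-LKO library was at least 2-fold lower than Fxr-Flox in 347 (3.58%) and at least 2-fold higher in 202 (2.09%), where a gene also needed 20 reads in a library of the pair. The same rule in the vehicle pair gave 129 lower (1.33%) and 130 higher (1.34%). The counting interval lay wholly past 2-fold for 220 of the genes on the low side (2.27%) and for 130 on the high side (1.34%) of the GW4064 pair, and for 0.475% and 0.754% of all genes in the vehicle pair. The median log2 ratio was 0.00, and the range from the 5th to the 95th percentile was -0.82 to 0.71 with GW4064 and -0.64 to 0.62 with vehicle.

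The 15 lowest genes were chosen by the upper bound of the counting interval and were, in the order of their ratio, G6pc2, Abcb11, Mfsd2a, Nr0b2, Clic3, Cyp4a12b, Cyp26a1, Pitx3, Thrsp, Hal, Rnf152, Elovl3, C4a, Asap3 and Cth. They include regulators, transporters and metabolic enzymes of the hepatocyte. G6pc2, a glucose-6-phosphatase related protein, measured 0.553 RPKM in Fxr-Flox with vehicle, 25.2 in Fxr-Flox with GW4064, 0.121 in Fxr-LKO with vehicle and 0.049 in Fxr-LKO with GW4064. Its Fxr-Flox GW4064 library held 2151 reads and its Fxr-LKO GW4064 library 2 reads, and the counting interval of the log2 ratio ran from -12.05 to -7.15. The gene lies at chr2:69219949-69227993 on the plus strand, close to the 3' end of Abcb11, which runs towards it on the minus strand. Whether reads from beyond the end of Abcb11 fell in the G6pc2 row was not tested.

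Nr0b2, the repressor SHP, measured 3.65 RPKM in Fxr-Flox with vehicle, 36.6 in Fxr-Flox with GW4064, 0.118 in Fxr-LKO with vehicle and 1.19 in Fxr-LKO with GW4064. Its Fxr-LKO values rest on 2 and 20 reads, vehicle first. Both Fxr-LKO libraries were below both Fxr-Flox libraries, and the log2 ratio was -4.83 with GW4064 and -4.10 with vehicle (counting interval -8.01 to -3.08). Mfsd2a, a transporter of lysophosphatidylcholine, had the same arrangement, with 12.3 and 48.7 RPKM in the Fxr-Flox libraries and 0.570 and 1.61 RPKM in the Fxr-LKO libraries, vehicle first. Its ratio was -4.84 with GW4064 and -4.20 with vehicle. For both genes, then, the libraries already differed by genotype without the agonist.

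Clic3, a chloride channel family member, differed from them in that Fxr-Flox with vehicle was at 0.110 RPKM, below the 0.605 RPKM of Fxr-LKO with vehicle, though these rest on 3 and 6 reads and count as past 2-fold in neither direction. With GW4064 it was at 17.5 RPKM in Fxr-Flox and at 0.614 RPKM in Fxr-LKO, a ratio of -4.62. Cyp26a1, which degrades retinoic acid, was at 10.7 RPKM in Fxr-Flox and at 0.423 RPKM in Fxr-LKO, on 422 and 8 reads. Thrsp, a regulator of lipogenesis, was at 26.7 and 1.54 RPKM. Hal, the first enzyme of histidine breakdown, was at 29.3 and 2.25 RPKM.

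Cth makes cysteine by transsulfuration and had the second highest read count of the 15, with 25586 reads in Fxr-Flox and 1363 in Fxr-LKO. Its levels were 4.29 RPKM in Fxr-Flox with vehicle, 78.4 in Fxr-Flox with GW4064, 9.61 in Fxr-LKO with vehicle and 8.73 in Fxr-LKO with GW4064. Again a single library was high, and the ratio was -3.15 with GW4064 and 1.15 with vehicle. Pitx3 and Elovl3 overlap on opposite strands and Rnf152 overlaps a further row, so reads of these 3 may be shared between rows, and C4a and Cyp4a12b have near-identical neighbours (C4b and Cyp4a12a) between which reads can be split. Cyp4a12b was at -4.57 and Cyp4a12a at -0.48.

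**Figure D1:**
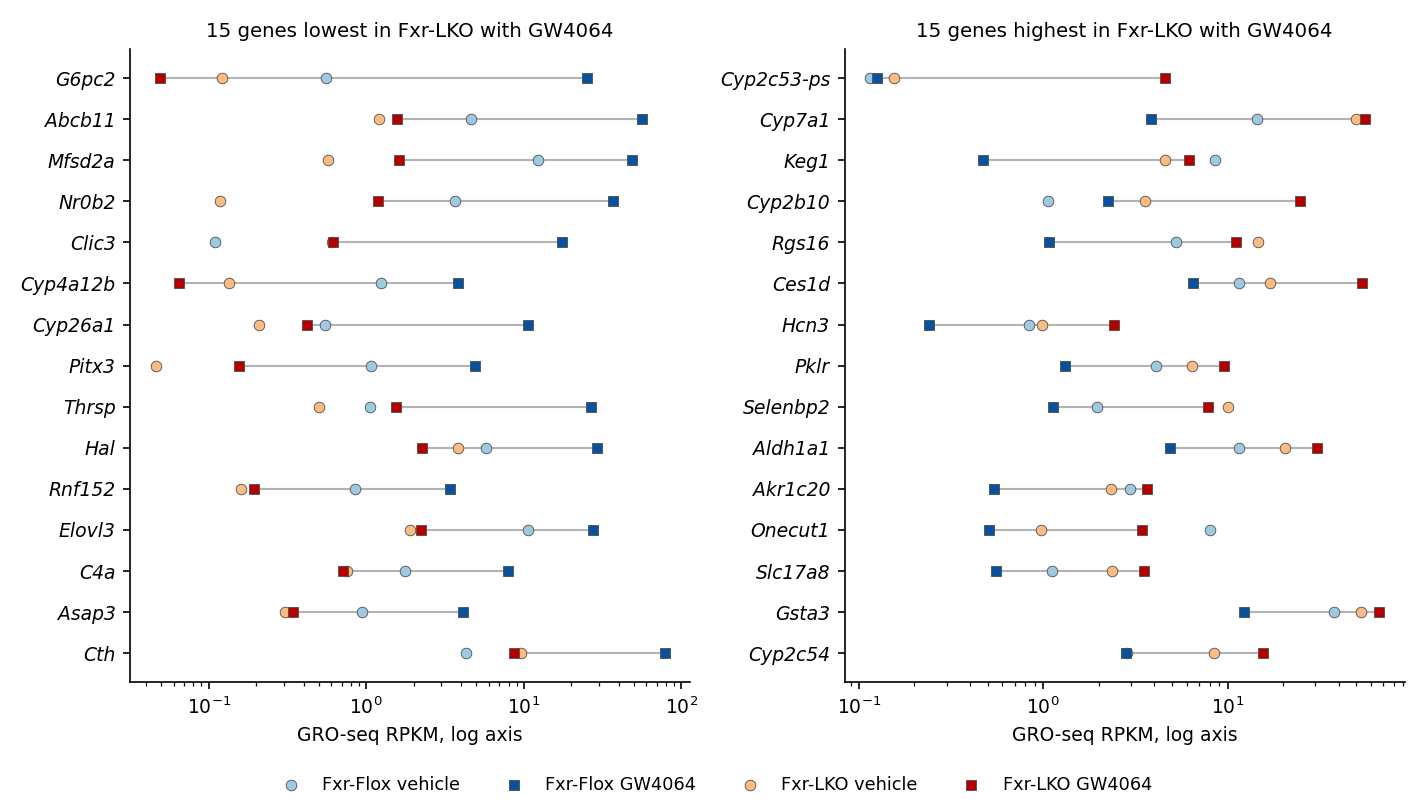
GRO-seq level in RPKM (log axis) in each of the 4 libraries for the 15 genes lowest (left) and the 15 highest (right) in Fxr-LKO with GW4064, with 1 point per library and a grey line joining the GW4064 pair. On the left the Fxr-Flox GW4064 point lies furthest right for all 15 genes, from 3.40 RPKM for Rnf152 to 78.4 RPKM for Cth. The genes were ranked on the GW4064 pair, so its place to the right of the Fxr-LKO GW4064 point follows from the choice. G6pc2, Clic3, Cyp4a12b, Cyp26a1, Pitx3 and Rnf152 passed the level limit only through the Fxr-Flox GW4064 library. For them its place to the right of the vehicle points is partly set by the filter too.

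The 15 highest genes were chosen by the lower bound of the interval and were, in the order of their ratio, Cyp2c53-ps, Cyp7a1, Keg1, Cyp2b10, Rgs16, Ces1d, Hcn3, Pklr, Selenbp2, Aldh1a1, Akr1c20, Onecut1, Slc17a8, Gsta3 and Cyp2c54. Cyp7a1 (chr4:6265612-6275632, minus strand), which catalyses the first step from cholesterol to bile acids, measured 14.4 RPKM in Fxr-Flox with vehicle, 3.83 in Fxr-Flox with GW4064, 49.8 in Fxr-LKO with vehicle and 55.4 in Fxr-LKO with GW4064. Both Fxr-LKO libraries were above both Fxr-Flox libraries, and the log2 ratio was 3.82 with GW4064 (95% counting interval 3.70 to 4.01) and 1.78 with vehicle.

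The pseudogene Cyp2c53-ps was high in the Fxr-LKO GW4064 library alone, at 4.60 RPKM, with 0.115, 0.125 and 0.154 RPKM in Fxr-Flox with vehicle, Fxr-Flox with GW4064 and Fxr-LKO with vehicle. It passed the level limit only through the Fxr-LKO GW4064 library, so this pattern is partly set by the filter. Cyp2b10, a drug-metabolizing cytochrome P450 and classical target of the receptor CAR, was likewise highest there, with 24.8 RPKM beside 1.06, 2.24 and 3.59 RPKM in the same order. Ces1d, a carboxylesterase, reached 53.5 RPKM beside 11.5, 6.52 and 16.9 RPKM. In these 3 genes the outstanding library was Fxr-LKO with GW4064 and not Fxr-Flox with GW4064.

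In other genes of the 15 the Fxr-Flox GW4064 library was the lowest of the 4 by a wide margin. Keg1 was at 0.470 RPKM there and between 4.55 and 8.56 RPKM in the other libraries. Gsta3, a glutathione transferase, was at 12.2 RPKM there and between 38.0 and 66.6 RPKM elsewhere. Pklr, the pyruvate kinase of liver, was at 1.32 RPKM there and between 4.09 and 9.60 RPKM elsewhere. Its 3' end adjoins that of Hcn3 on the opposite strand, and whether these rows share reads was not tested.

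Of the 15 lowest genes 11 were also at least 2-fold lower in the vehicle pair, and of the 15 highest 6 were also at least 2-fold higher in it. Over all genes, 40 of the 347 on the low side were low in the vehicle pair too, which is 11.5% of the former and 31.0% of the 129 vehicle genes. On the high side 36 genes were shared, 17.8% of the 202 and 27.7% of the 130. The vehicle pair was past 2-fold in neither direction for 301 of the 347 and 160 of the 202. Across the 9683 genes the ratios of the 2 pairs, which share no library, had a Pearson correlation of 0.284 and a Spearman correlation of 0.236, where genes are not independent replicates.

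**Figure D2:**
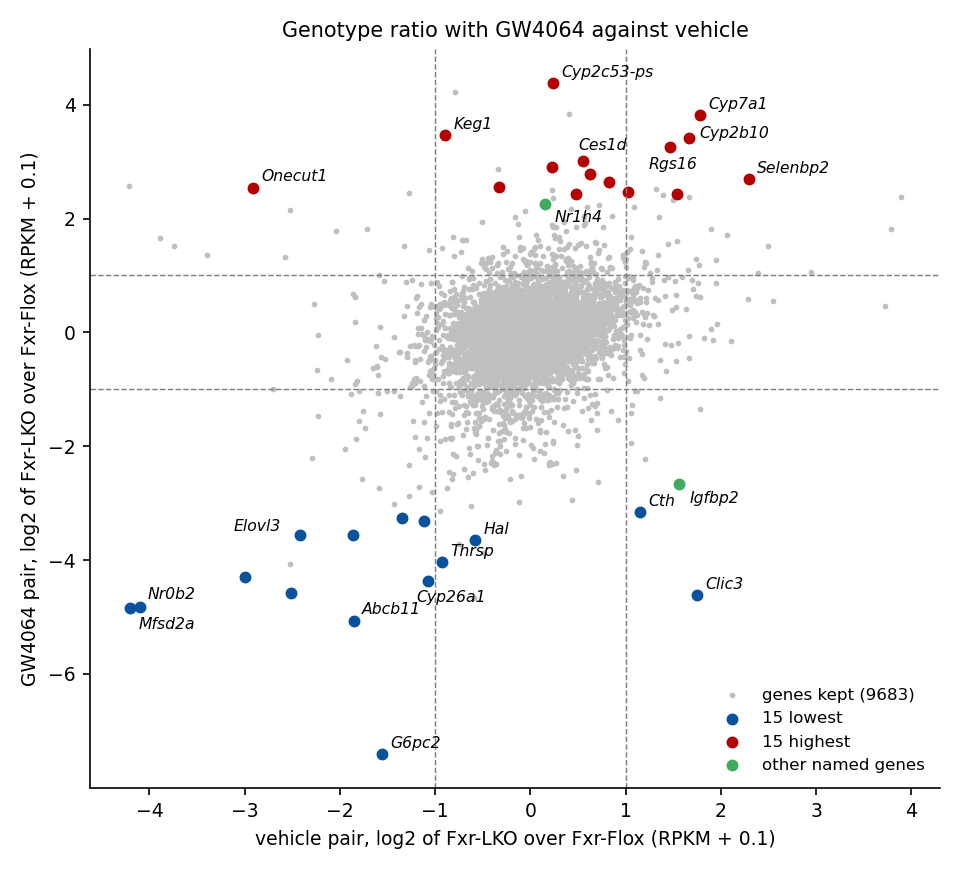
Log2 ratio of Fxr-LKO over Fxr-Flox in the GW4064 pair (vertical) against the vehicle pair (horizontal), 1 point per gene for 9683 genes, with dashed lines at 2-fold. Abcb11 and Nr0b2 lie low in both pairs, Cyp7a1 lies high in both, and Cth and Igfbp2 lie low with GW4064 (-3.15 and -2.66) but high with vehicle (1.15 and 1.56).

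The RNA-seq libraries showed which genes GW4064 raised in wild-type liver. They were not used to keep genes, but the list was limited to the genes kept. That filter used the mean over the GRO-seq libraries, Fxr-Flox with GW4064 among them. Some members, such as Steap3 (1.67 RPKM there and at most 0.317 RPKM elsewhere), passed it only through that library. The share that is lower in Fxr-LKO is thus partly set by the filter. A gene counted as raised when both GW4064 libraries were above both vehicle libraries and the mean was at least 2-fold higher, with a mean of at least 0.5 RPKM, and 119 of the genes kept met this. In the GRO-seq GW4064 pair 101 of the 119 (84.9%) were at least 2-fold lower in Fxr-LKO and 116 were below 0, and the median log2 ratio was -1.78, beside 3.58% and 0.00 over all genes. In the vehicle pair 19 of the 119 were at least 2-fold lower and 5 at least 2-fold higher, with a median of -0.33. The members' median log2 ratio of GW4064 over vehicle was 1.68 within Fxr-Flox and 0.07 within Fxr-LKO, values that share libraries with the genotype ratios.

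Osgin1, an oxidative stress-induced growth inhibitor, measured 8.36 and 6.39 RPKM in the RNA-seq vehicle libraries and 41.8 and 39.5 RPKM in the GW4064 libraries. In GRO-seq it was at 9.06 RPKM in Fxr-Flox with vehicle, 82.0 in Fxr-Flox with GW4064, 6.47 in Fxr-LKO with vehicle and 15.2 in Fxr-LKO with GW4064, so Fxr-LKO with GW4064 was the second highest library. Hes1, a transcriptional repressor of the Notch pathway, was at 9.02 RPKM in Fxr-Flox and at 1.21 RPKM in Fxr-LKO with GW4064.

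A few raised genes, named here after their values were seen, did not have this pattern. Cyp2c29 was the 1 member at least 2-fold higher in Fxr-LKO, with 16.1, 39.9, 24.0 and 150.7 RPKM in Fxr-Flox with vehicle and GW4064 and Fxr-LKO with vehicle and GW4064. Cyp3a59, a cytochrome P450 of the drug-metabolizing family, measured 1.11, 4.46, 1.97 and 7.70 RPKM in that order. Alas1, the rate-limiting enzyme of heme synthesis in liver, measured 54.3, 85.7, 53.1 and 106.7 RPKM. In all 3 the GW4064 library was above the vehicle library in both genotypes.

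By the mirrored rule GW4064 lowered 35 genes in RNA-seq. Of these 17 (48.6%, beside 2.09% of all genes) were at least 2-fold higher in Fxr-LKO with GW4064 and 1, Pdgfrl (chosen after its value was seen), was at least 2-fold lower, with a median log2 ratio of 1.06 and a vehicle-pair median of 0.04. Nr1h4 was among the lowered genes, with 9.09 and 9.38 RPKM in the RNA-seq vehicle libraries and 3.90 and 3.72 RPKM in the GW4064 libraries. Lpin1, a phosphatidic acid phosphatase, was at 11.4 RPKM in Fxr-Flox and 34.9 RPKM in Fxr-LKO with GW4064, and the hydroxysteroid dehydrogenase Akr1c6 at 4.14 and 18.4 RPKM.

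**Figure D3:**
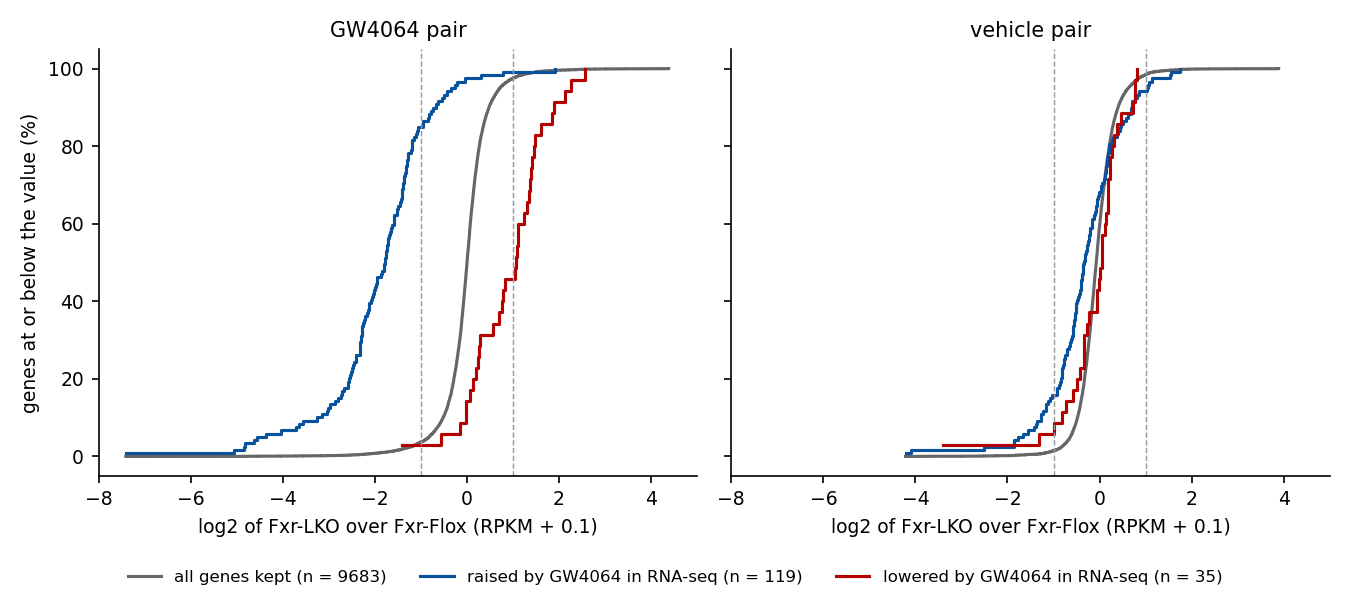
Cumulative percentage of genes by log2 ratio of Fxr-LKO over Fxr-Flox in the GW4064 pair (left) and the vehicle pair (right), for all 9683 genes and for the 119 raised and 35 lowered by GW4064 in RNA-seq, with dashed lines at 2-fold. The raised genes are shifted left in the GW4064 panel (median -1.78) and less so in the vehicle panel (median -0.33).

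The counts of each list below stand beside 3.58% of all 9683 genes lower and 2.09% higher with GW4064. With vehicle these shares were 1.33% and 1.34%. Among 23 measured genes of a list of known FXR-induced genes, 7 were at least 2-fold lower in Fxr-LKO with GW4064. They were Abcb11, Nr0b2, Osgin1, Scarb1, Atp8b1, Abcb4 and Mafg. None (0) was at least 2-fold higher, and the list median was -0.34. Scarb1, the receptor for high-density lipoprotein, was at 8.32 RPKM in Fxr-Flox and 1.83 RPKM in Fxr-LKO. The phospholipid transporters of the canalicular membrane were lower as well, with Abcb4 at 23.2 and 7.23 RPKM and Atp8b1 at 2.38 and 0.521 RPKM. Their vehicle-pair ratios were 0.14 for Scarb1, -0.00 for Abcb4 and -0.57 for Atp8b1.

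Other members differed by less than 2-fold between the GW4064 libraries, in both directions. On the high side were Baat, which conjugates bile acids, at 0.76, Fetub at 0.65 and the canalicular transporter Abcc2 at 0.63, with 28.7 RPKM in Fxr-Flox and 44.5 RPKM in Fxr-LKO. The fibrinogen genes Fga and Fgb were at 0.03 and -0.02, Fgg was at -0.33 and the sterol transporters Abcg5 and Abcg8 were at -0.73 and -0.15. Slc51a, Slc51b and Akr1b7 did not reach the level limit. Slc51b, a subunit of the basolateral bile acid exporter, had 17 reads in Fxr-Flox and 1 read in Fxr-LKO with GW4064.

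Of 12 genes for FXR, its RXR partners and its regulators, Nr0b2 was the 1 member at least 2-fold lower and Nr1h4 the 1 at least 2-fold higher. Rxra, the main RXR of liver, was at 9.65 RPKM in Fxr-Flox and 14.3 RPKM in Fxr-LKO with GW4064 (log2 ratio 0.57). The coregulators Ncor1, Ncoa1, Ncoa2 and Kmt2d lay between -0.12 and 0.09.

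In bile acid synthesis and conjugation 0 of 18 measured genes were at least 2-fold lower in Fxr-LKO with GW4064 (3.58% of all genes). The list median was 0.32, and 4 were at least 2-fold higher (2.09% of all genes). Besides Cyp7a1 these were Akr1c6 (2.13), Akr1c14 (2.04) and Cyp39a1 (1.47), which act on the sterol nucleus. Cyp8b1, the sterol 12-alpha-hydroxylase, measured 31.9 RPKM in Fxr-Flox with vehicle, 48.1 in Fxr-Flox with GW4064, 106.5 in Fxr-LKO with vehicle and 74.8 in Fxr-LKO with GW4064. The Fxr-LKO libraries were the 2 highest, yet its ratio was larger with vehicle (1.74) than with GW4064 (0.64). Cyp7b1 was lower in both GW4064 libraries than in both vehicle libraries, at 2.97 and 4.19 RPKM against 9.07 and 9.56 RPKM, Fxr-Flox first. Among 12 bile acid and organic anion transport genes, 3 were low (Abcb11, Atp8b1 and Abcb4) and 1 was high, the uptake carrier Slco1a4, at 2.64 RPKM in Fxr-Flox and 14.0 RPKM in Fxr-LKO with GW4064 (2.37, vehicle 1.66).

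Xenobiotic metabolism, the list with the most members, had 22 of 52 genes at least 2-fold higher in Fxr-LKO with GW4064. A further 2 were at least 2-fold lower, and the median was 0.75. The vehicle pair had 5 higher, 3 lower and a median of 0.37. Of all genes 2.09% were higher and 3.58% lower with GW4064, so the low-side count was near that share. With vehicle 1.34% of all genes were higher and 1.33% lower. Aldh1a1, a retinaldehyde dehydrogenase, was at 4.85 RPKM in Fxr-Flox and at 30.6 RPKM in Fxr-LKO. Cyp3a11, the main drug-metabolizing P450 of its family and named after its value was seen, measured 14.4, 48.3, 28.7 and 113.2 RPKM in Fxr-Flox with vehicle and GW4064 and Fxr-LKO with vehicle and GW4064. Its GW4064 library was the higher one in each genotype.

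The genes on the low side of that list were Fmo5 and Nr1i2, named for the small count. Nr1i2, the xenobiotic receptor PXR, measured 5.50, 17.8, 3.42 and 6.70 RPKM in the order just given. Gene families that were grouped after their values were seen differed in direction and extent. Of 6 Ces1 carboxylesterases 5 were at least 2-fold higher and Ces1g was lower (-1.69), and of 6 Akr1c genes 4 were at least 2-fold higher, whereas of 17 glutathione transferases 2 were. Members of the Ces1, Akr1c and Cyp2c families are close in sequence, so reads can be split between them.

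Cholesterol synthesis and uptake genes were high in Fxr-LKO in both pairs. With GW4064, 9 of 21 were at least 2-fold higher and 0 at least 2-fold lower (median 0.76). With vehicle 6 were at least 2-fold higher (median 0.79). Of all genes 2.09% were higher with GW4064 and 1.34% with vehicle. Fdps, a synthase of the isoprenoid steps, was at 0.893 and 0.439 RPKM in Fxr-Flox with vehicle and GW4064 and at 2.51 and 2.78 RPKM in Fxr-LKO. Sqle, the squalene epoxidase, and Msmo1, a methylsterol oxidase, had ratios of 2.03 and 1.81 with GW4064 and 1.35 and 1.89 with vehicle. For these genes the 2 Fxr-LKO libraries were above the 2 Fxr-Flox libraries.

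In fatty acid and triglyceride synthesis, 7 of 23 genes were at least 2-fold higher and 4 at least 2-fold lower, with a median of 0.04. Of all genes 2.09% were higher and 3.58% lower, and the counts of the next 2 lists stand beside the same shares. Acaca, which makes malonyl-CoA, was at 0.830 RPKM in Fxr-Flox and 2.94 RPKM in Fxr-LKO with GW4064, and Dgat2, which makes triglyceride, at 3.58 and 10.6 RPKM. Thrsp, described above, was the lowest member. Of 34 fatty acid oxidation genes and PPARa targets 4 were lower and 2 higher, and Pdk4, a kinase that restrains pyruvate oxidation, was at 6.85 and 2.90 RPKM. Of 25 lipoprotein genes Scarb1 and the hepatic lipase Lipc (-1.64) were at least 2-fold lower and 0 were at least 2-fold higher.

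For glucose and glycogen metabolism 4 of 29 genes were lower and 3 higher, beside 3.58% and 2.09% of all genes. Igfbp2, an IGF-binding protein, measured 4.20 RPKM in Fxr-Flox with vehicle, 46.4 in Fxr-Flox with GW4064, 12.6 in Fxr-LKO with vehicle and 7.24 in Fxr-LKO with GW4064. Its 2 genotypes were thus ranked oppositely with vehicle and with GW4064.

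Immediate early and stress-responsive genes had more members on the low side, with 10 of 37 at least 2-fold lower in Fxr-LKO with GW4064. Another 2 were at least 2-fold higher, and the median was -0.56, beside 3.58% lower and 2.09% higher of all genes. The vehicle pair leaned the same way, with 5 lower, 1 higher and a median of -0.17, beside 1.33% and 1.34% of all genes. Gadd45g, a growth arrest and DNA damage gene, was at 42.5 RPKM in Fxr-Flox with GW4064 and between 8.32 and 10.7 RPKM in the other libraries. Zfp36, which destabilizes cytokine mRNAs, was at 37.1 RPKM in Fxr-Flox and 10.2 RPKM in Fxr-LKO with GW4064. Socs2 and Myc were the members on the high side, with 27 and 40 reads in the Fxr-Flox library.

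Of 15 circadian clock genes and outputs 6 were higher and 2 lower (median 0.72, vehicle 0.20), beside 2.09% and 3.58% of all genes. Dbp, a clock output factor, was at 1.73 RPKM in Fxr-Flox with GW4064 and between 5.31 and 8.83 RPKM in the other 3 libraries, and Ciart was at 1.52 RPKM there and between 3.45 and 7.42 RPKM elsewhere. The Dbp and Ciart rows each overlap another row.

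Of 29 hepatocyte lineage factors and other nuclear receptors 1 was lower (Nr1i2) and 3 were higher, among them Foxa3 (1.20) and Onecut1. Onecut1, a hepatocyte transcription factor, measured 8.01, 0.507, 0.975 and 3.44 RPKM in Fxr-Flox with vehicle and GW4064 and Fxr-LKO with vehicle and GW4064. In the acute phase, complement and coagulation list 2 of 43 were lower and 3 higher, with a median of 0.03. The low-side counts of these 2 lists were close to the 3.58% of all genes. None of 19 heat shock and unfolded protein response genes was past 2-fold in either direction. Of 10 interferon-stimulated genes 2 were lower, Mx2 (-2.09) and Usp18 (-1.15).

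Lists of genes next to enhancer RNAs were picked by the study from the RNA-seq libraries of this series, the same that gave the raised and lowered genes above, and are not evidence of direction independent of those. Next to enhancer RNAs raised by GW4064, 6 of 9 measured genes were at least 2-fold lower and 0 higher, with a median of -1.74. Next to those reduced by GW4064, 2 of 6 were at least 2-fold higher and 0 lower, with a median of 0.55.

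**Figure D4:**
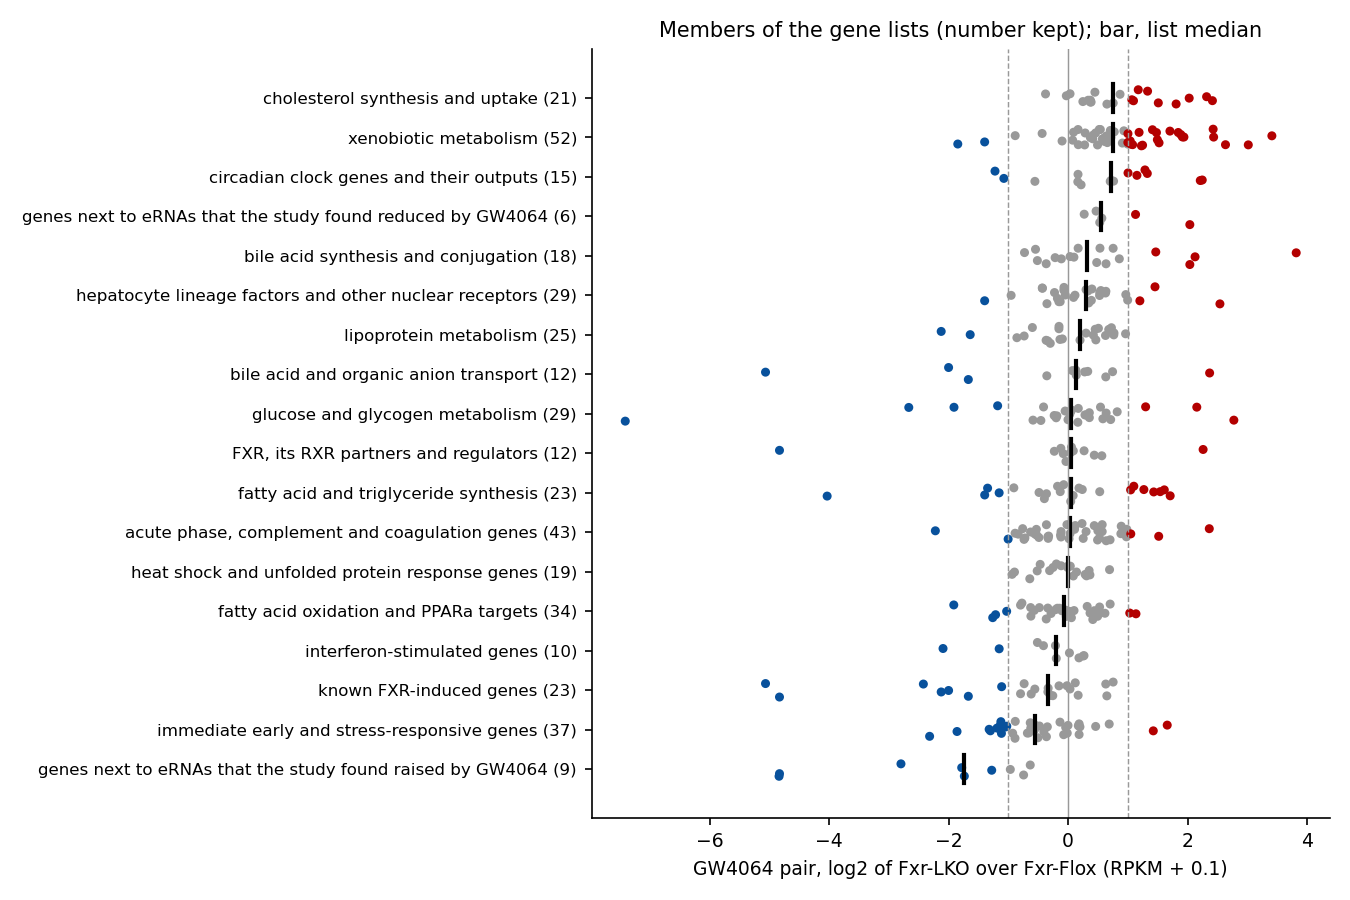
Log2 ratio of Fxr-LKO over Fxr-Flox with GW4064 for each member of 18 gene lists, 1 point per gene with the number kept in brackets and a black bar at the list median, blue at or below -1 and red at or above 1. List medians run from -1.74 for genes next to enhancer RNAs raised by GW4064 to 0.76 for cholesterol synthesis and uptake.

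Sums of cell type markers differed between the GW4064 libraries, in several lists in another direction than with vehicle. The 10 hepatocyte markers summed to 767 RPKM in Fxr-Flox and 1102 RPKM in Fxr-LKO with GW4064 (710 and 1155 RPKM with vehicle), with a median ratio of 0.54 and 0 of 10 past 2-fold. The 12 periportal markers summed to 395 and 262 RPKM (222 and 308 RPKM with vehicle), and 4 of the 11 above the level limit were at least 2-fold lower, Hal, Ass1 (-1.91), Etnppl (-1.86) and Gls2 (-1.20). The 12 pericentral markers summed to 126 and 202 RPKM (166 and 210 RPKM with vehicle), with Cyp2e1 higher (1.25) and Oat lower (-1.02).

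Summed over every listed marker, above the level limit or not, Kupffer cell markers came to 13.3 and 12.1 RPKM, stellate cell markers to 12.6 and 11.5 RPKM and sinusoidal endothelial markers to 30.3 and 23.1 RPKM in Fxr-Flox and Fxr-LKO with GW4064, and of their 7, 5 and 12 members above the limit 0 were past 2-fold. With vehicle the same sums were 11.1 and 14.3 RPKM, 13.0 and 11.2 RPKM, and 25.4 and 25.9 RPKM. The endothelial median was -0.32. Cholangiocyte markers summed to 3.56 and 4.12 RPKM (3.81 and 3.94 RPKM with vehicle), with 3 of 9 above the level limit and Krt19, Krt7 and Epcam at or below 0.137 RPKM in the pair. Markers of other blood cells summed to 20.2 and 16.6 RPKM (17.3 and 12.3 RPKM with vehicle), and 1 of 4 was at least 2-fold lower, S100a8, on 41 and 9 reads. Fewer cells of a type and less transcription per cell cannot be told apart in bulk nuclei, and the part of these shifts in the gene list results was not tested.

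Medians by gene length lay close together in the GW4064 pair. The median log2 ratio was 0.04 in 1678 genes under 5 kb and -0.05 in 358 genes of 150 kb or more, whereas in the vehicle pair it ran from 0.05 in the shortest class to -0.18 in the class of 60 to 150 kb. The share of genes at least 2-fold lower with GW4064 was 4.83% in the shortest class and 2.23% in the longest. Of 9065 protein-coding genes 313 (3.45%) were at least 2-fold lower and 177 (1.95%) at least 2-fold higher. Of 534 non-coding genes 28 (5.24%) were lower and 20 (3.75%) higher, beside 3.58% and 2.09% of all genes.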

How the data were processed

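GRO-seq and RNA-seq values were taken from the expression table that the authors deposited, in which each row is a gene with its mm10 coordinates and each library has a column in RPKM. According to the submitters' processing notes bcl2fastq, FastQC, STAR 2.7.3a and HOMER were used. Whether reads were counted by strand was not given in the sources used here. The unit is normalized for row length and library total. The authors' RPKM steps gave whole reads (within 0.15 of a read) for at least 99.97% of the values that could be checked, which yielded each library total. The 4 GRO-seq libraries held 5069400 to 14173760 reads.

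Rows of 300 bases or more that averaged 0.5 RPKM or more were kept, and the log2 ratio of RPKM + 0.1 was taken between the libraries of each treatment. The 95% interval is the exact Clopper-Pearson interval of the read ratio with nothing added. It compares 2 libraries, not genotypes, and reads are not known to be independent molecules. Since 0.1 was added to the ratio and not to the interval, the ratio of a low gene can lie outside it. A gene was counted past 2-fold when it also had 20 reads in a library of the pair. No test was made, as each genotype had 1 library with each treatment.

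The genes named were the 15 with the smallest upper and the 15 with the largest lower bound of the interval, from genes that averaged 1 RPKM or more, leaving out predicted genes, clones and small RNA genes, together with Nr1h4, all measured members of the lists of FXR partners, FXR-induced genes and bile acid synthesis, and the 4 members with the largest ratio of each other list. A few genes that meet these rules are not reported here. Further names are said to be chosen after their values were seen, or complete a small count. The members and the 26 lists were chosen with earlier results of these data known. Promoters came from RefSeq (GRCm38.p6). Alternatives changed the value added, the filters, centring, overlapping rows and the RNA-seq fold. Python 3.11.15, pandas 2.3.3, numpy 2.4.6, scipy 1.17.1 and matplotlib 3.10.9 were used, and the calculation was tested on simulated reads.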

Additional observations from a re-analysis of the deposited data

Results flagged for a closer look

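In 10 genes reported here the GW4064 pair and the vehicle pair were past 2-fold in opposite directions, with both counting intervals clear of 0. With 1 library in each group this difference was not tested. The values below are the log2 ratio of Fxr-LKO over Fxr-Flox with GW4064 minus the same ratio with vehicle.

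Lower with GW4064 and higher with vehicle were Cth (-4.30), Igfbp2 (-4.22), Elovl5 (-2.51), Gdf15 (-2.48), Ehhadh (-2.15) and Slc25a22 (-2.13). Ehhadh, an enzyme of peroxisomal fatty acid oxidation, was at 7.65 RPKM in Fxr-Flox with vehicle, 23.6 in Fxr-Flox with GW4064, 16.7 in Fxr-LKO with vehicle and 11.5 in Fxr-LKO with GW4064. In all 6 the Fxr-Flox GW4064 library was the highest of the 4 and the Fxr-Flox vehicle library the lowest.

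Higher with GW4064 and lower with vehicle were Onecut1 (5.46), Serpina4-ps1 (5.25), Gm16551 (3.54) and Ugt2a3 (2.85). Serpina4-ps1 was at 35.4 RPKM in Fxr-Flox with vehicle, 2.22 in Fxr-Flox with GW4064, 2.56 in Fxr-LKO with vehicle and 6.54 in Fxr-LKO with GW4064. Gm16551 rests on 12 to 26 reads in 3 of its libraries.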

How the results depend on the processing

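No paired analysis was possible because each genotype had 1 GRO-seq library with each treatment and no test was made, and the RNA-seq lists rest on an ordering of libraries without a test. Centring on the median, 0.01 RPKM added, no minimum of reads, rows of any length, the looser filters and leaving out overlapping rows kept every count they were run on within 1.5 times of that reported. Adding 1 RPKM gave 169 genes lower and 85 higher, 7 of the RNA-seq lowered genes higher, 4 cholesterol genes higher, 4 lipogenic genes higher, 2 fatty acid oxidation genes lower and 0 higher, 3 immediate early genes lower and 1 higher, 0 clock genes lower and 2 higher, and 1 acute phase gene, 1 interferon gene, 0 pericentral markers and 0 blood markers lower. This value outweighs the levels of genes under 1 RPKM. A filter at a mean of 1 RPKM left 1 interferon gene lower. At 1.5-fold in RNA-seq, 308 genes were raised, of which 185 were lower in Fxr-LKO, and 217 were lowered, of which 59 were higher. No named gene past 2-fold changed sign with nothing added or after centring, and 6 of 150 moved by more than their counting error with nothing added. The lower read totals of the Fxr-LKO libraries limit low genes there, such as G6pc2 with 2 reads.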
